A study of Homo sapiens with 14 samples.

Results

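The comparison described here set wild-type U2AF1, put back by a viral construct after its knockdown, against the same knockdown with an empty vector. It rests on 6 of the 14 RNA-seq libraries of a study of A549 cells, an established human lung carcinoma line grown in RPMI-1640 with serum. The 6 libraries were chosen by their labels alone: 2 had the knockdown of U2AF1 and the empty vector, 2 had the knockdown and a construct of wild-type isoform v1, and 2 had the knockdown and a construct of wild-type isoform v3. All 6 therefore carried the knockdown and a vector, and the labels state that the U2AF1 constructs were brought in by infection with virus. The other 8 libraries were 2 of untreated cells, 2 with the empty vector and a control siRNA, and 4 with v1 or v3 carrying the mutation S34F, and they entered the model to estimate the spread between replicates. The labels call the constructs overexpression. They give no dose, time after infection or promoter. Whether the 2 replicates of a group were separate cultures is not said either, so p-values reflect spread among these libraries that could be technical.

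U2AF1 is the small subunit of the U2AF dimer. It contacts the AG dinucleotide at the 3′ end of an intron, while its partner U2AF2 binds the pyrimidine-rich stretch just upstream, and together they help to bring the U2 snRNP to the branch point. Acceptors, the 3′ splice sites, differ in how much they need the small subunit, and loss of U2AF1 is known to alter the choice between exons and between neighbouring acceptors. FECH, the second marker gene of the comparison, encodes ferrochelatase, the mitochondrial enzyme that inserts iron into protoporphyrin in the last step of heme synthesis.

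The constructs v1 and v3 can be told apart in the isoform tables because the U2AF1 gene has 2 mutually exclusive versions of exon 3, of equal length. Their sequences follow, since the isoform counts of the constructs turn on them. They are the coding exons 3 of ENST00000380276 and ENST00000291552 in GENCODE release 29, on the minus strand of GRCh38 at chr21:43101366-43101432 and chr21:43100453-43100519, written in transcript orientation. Capitals mark the 23 of 67 positions at which they differ.
ENST00000380276 exon 3: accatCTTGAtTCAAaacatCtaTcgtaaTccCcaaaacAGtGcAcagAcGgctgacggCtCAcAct
ENST00000291552 exon 3: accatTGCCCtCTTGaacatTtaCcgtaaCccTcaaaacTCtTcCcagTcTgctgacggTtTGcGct

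U2AF1 (ENSG00000160201, chr21:44513066-44527697, GRCh37) was at 116.9 and 118.9 FPKM in the control siRNA libraries and at 16.2 and 28.9 FPKM in the knockdown. FPKM counts sequenced fragments per kilobase of an isoform, relative to all fragments mapped in that library. The 2 wild-type v1 libraries had 2351 and 2877 FPKM and the 2 wild-type v3 libraries 2366 and 3313 FPKM. The knockdown thus held 19.1% of the control mean, and the constructs brought the gene to 22.2 times (v1) and 24.1 times (v3) that mean, with no overlap between groups. The log2 difference of wild type from knockdown was 6.90 (SE 0.27, adjusted p = 6.8e-07). FPKM does not separate the construct from the endogenous gene, and a return of U2AF1 and an excess of it cannot be told apart in this design.

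Each construct was read as its own isoform. ENST00000380276 made up 97.9% and 97.1% of U2AF1 FPKM in the wild-type v1 libraries and 1.10% and 1.27% in the wild-type v3 libraries. ENST00000291552 took 95.4% in each of the wild-type v3 libraries and 1.14% and 1.69% in the wild-type v1 libraries. The exon that was not in the construct was at 26.9 and 48.6 FPKM (ENST00000291552 with v1) and at 26.1 and 42.0 FPKM (ENST00000380276 with v3). In the knockdown libraries those isoforms were at 3.90 and 11.1 FPKM and at 2.97 and 9.81 FPKM. Whether the higher values with the other construct were endogenous RNA or misassigned construct fragments was not tested.

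FECH (ENSG00000066926, chr18:55215515-55254004, GRCh37) was at 25.5 and 20.5 FPKM in the knockdown. With wild-type v1 it was at 58.9 and 65.7 FPKM and with wild-type v3 at 53.1 and 59.9 FPKM. All 4 wild-type libraries lay above both knockdown libraries, by 2.71 times for v1 and 2.45 times for v3 in the means. FECH rose by a log2 change of 1.33 (SE 0.12, adjusted p = 0.0018), and it passed the threshold in each of the 17 other settings tried for genes, including those that left out a knockdown library. The control siRNA libraries had 50.05 and 43.2 FPKM and untreated cells 62.4 and 54.0 FPKM. Wild type against control siRNA gave a log2 difference of 0.34 (adjusted p = 0.24).

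**Figure D1:**
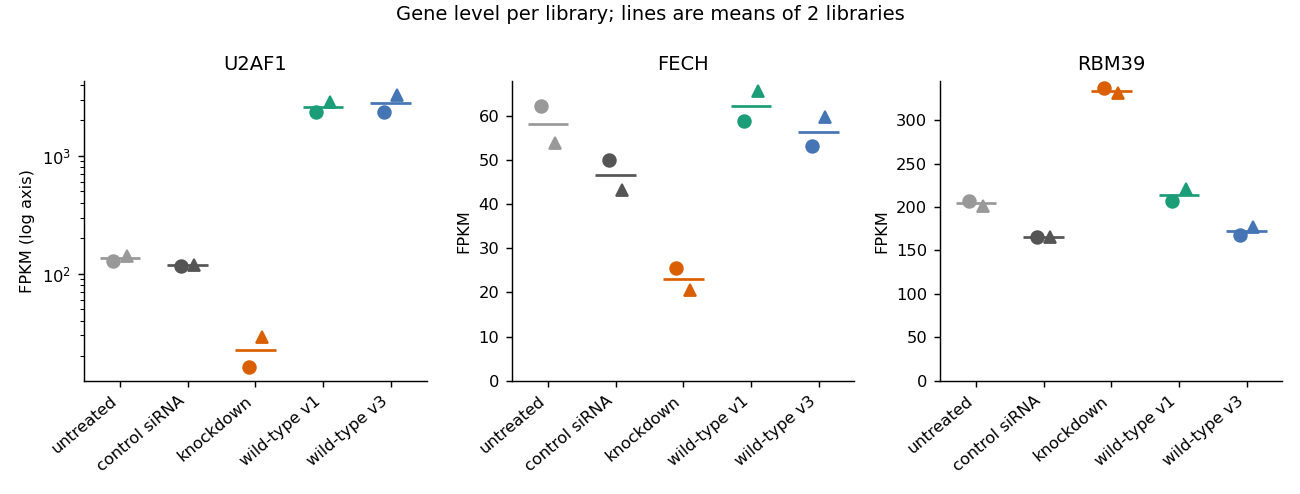
FPKM of U2AF1 (log axis), FECH and RBM39 in each library of 5 groups, with circles for replicate 1, triangles for replicate 2 and lines at the mean of 2 libraries. U2AF1 is lowest in the knockdown and at 2351 FPKM or more with the constructs, FECH is lowest in the knockdown, and RBM39 is highest there, at 336.6 and 331.5 FPKM.

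Relative depth of the libraries, from the coverage values of the tables, ran from 0.802 to 1.20, and 13734 to 14705 genes per library reached 1 FPKM. The absolute read number is unknown. Replicates were correlated across genes at 0.982 (knockdown), 0.977 (wild-type v1) and 0.978 (wild-type v3). In replicate 1 of the knockdown a single MIR1260B isoform took 8.81% of the FPKM sum, and in replicate 2 of v1 S34F an AL132768.1 isoform took 33.1%. Mitochondrially encoded genes took 6.47% and 6.43% of FPKM in the knockdown, 6.74% and 9.06% with wild-type v1, and 6.62% and 8.66% with wild-type v3. The 18 epithelial genes summed to 4332 to 4549 FPKM in the knockdown and to 4749 to 4871 with wild type, mostly from keratins. KRT7 was at 1062 and 1130 FPKM in the knockdown and 1310 to 1602 with wild type, while KRT8 and KRT18 overlapped between the groups. JUP lay lower with wild type, at 31.7 to 54.9 FPKM against 58.7 and 62.7 in the knockdown. GRHL2 and OVOL1 were under 0.1 FPKM in all 6 libraries. EPCAM was between 3.34 and 5.01 FPKM, and SFTPA1 and SFTPA2, surfactant genes of alveolar cells, were under 0.1 FPKM in all 6. Of the 11 leukocyte and endothelial markers 6 were under 0.1 FPKM in all 6 libraries, CD3E, KDR, LYZ, MS4A1, TEK and VWF, and the list summed to 24.4 to 26.4 FPKM in the knockdown and 26.8 to 41.7 with wild type. The 10 fibroblast markers summed to 8.59 to 10.7 and 9.99 to 12.9 FPKM.

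With wild-type U2AF1, 148 genes rose and 55 fell. That is 203 of the 14233 genes tested, or 1.43% (1.04% higher and 0.386% lower, adjusted p under 0.05). Of these, 41 changed by at least 2 times on the log2(FPKM + 1) scale, which understates changes of genes at low FPKM. The groups did not overlap for 202 of the 203, and over all genes tested the share not overlapping was 34.4%. With the replicate number as a block in the model, 707 rose and 363 fell, 7.52% of genes (4.97% higher and 2.55% lower), the shares against which blocked counts of list members are to be read. Without knockdown replicate 1 the total was 19, and without knockdown replicate 2 it was 5 (2 higher and 3 lower).

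The genes with the largest rises after U2AF1 included enzymes, transporters and poorly described transcripts. These genes, and those with the largest falls, were picked among called genes in which the wild-type and knockdown values did not overlap. RP11-350N15.4 was at 0 and 1.55 FPKM in the knockdown, at 10.2 and 17.5 FPKM with wild-type v1 and at 4.19 and 4.90 FPKM with wild-type v3 (log2 2.48, SE 0.39, adjusted p = 0.019). It was low in both knockdown libraries and highest with v1. The v1 and v3 values did not overlap, but the direct test of v3 against v1 did not pass after adjustment (unadjusted p = 0.012). SEC14L2, a lipid-binding protein of the Sec14 family, was at 4.32 and 4.63 FPKM in the knockdown, 12.7 and 11.7 with v1, and 12.8 and 11.9 with v3. The 4 wild-type values of SEC14L2 lay close together and apart from the knockdown (log2 1.28, SE 0.15, adjusted p = 0.0054). UBLCP1, a phosphatase of the nuclear proteasome, was at 17.2 and 12.9 FPKM in the knockdown and between 36.3 and 42.7 FPKM in the wild-type libraries. All 4 wild-type libraries had more UBLCP1 than either knockdown library (log2 1.33, SE 0.15, adjusted p = 0.0035). IL32, an inflammatory cytokine, was at 6.36 and 3.77 FPKM in the knockdown, 11.2 and 13.4 with v1, and 15.7 and 21.4 with v3 (log2 1.43, adjusted p = 0.029). Its wild-type values lay above the knockdown and around those of the control siRNA libraries, 20.4 and 12.8 FPKM.

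SLX1A, a subunit of a structure-specific DNA nuclease, was at 17.6 and 16.9 FPKM in the knockdown, 41.6 and 57.1 with v1, and 45.1 and 55.9 with v3 (log2 1.47, adjusted p = 0.0040). Its near-identical copy SLX1B rose as well (log2 1.14, adjusted p = 0.020), and reads can be split between the copies, so both values are uncertain. The remaining large rises were those of RP11-298I3.4, IMPDH1P10, AP003419.11, SLC17A3 and ZBED5-AS1, with log2 changes from 1.22 to 1.46. SLC17A3 is a transporter of organic anions. IMPDH1P10 is a pseudogene that can share reads with its parent gene, and ZBED5-AS1 lies antisense to another gene, with strand not stated for these libraries. AP003419.11 was at 9.43 FPKM in replicate 1 of wild-type v1, near the knockdown at 7.30 and 6.55 FPKM, and at 19.3 to 29.5 FPKM in the other wild-type libraries.

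Among the falls were a pair of SNARE proteins, which drive the fusion of vesicles with their target membranes. SNAP25 was at 24.5 and 30.7 FPKM in the knockdown, 10.4 and 8.59 with v1, and 10.4 and 6.69 with v3 (log2 -1.52, SE 0.25, adjusted p = 0.022). VAMP1 was at 23.8 and 45.2 FPKM in the knockdown, 8.66 and 12.7 with v1, and 7.03 and 11.7 with v3 (log2 -1.65, SE 0.29, adjusted p = 0.027). For both genes the wild-type libraries lay below each knockdown library, although the knockdown libraries of VAMP1 were themselves far apart. Of the 28 SNARE genes tested these 2 fell and none rose, where 0.386% of all genes fell, and 13 lay above the knockdown (median log2 change -0.07). Blocked by replicate, 4 fell, where 2.55% of all genes fell. PTBP2, a paralog of PTBP1 that is prominent in neurons, was at 24.6 and 29.2 FPKM in the knockdown, 7.38 and 12.2 with v1, and 7.90 and 11.2 with v3 (log2 -1.41, adjusted p = 0.048). The PTBP2 values of the 4 wild-type libraries did not reach those of the knockdown.

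SNORD15B, a small nucleolar RNA, was listed at 0 in all 4 wild-type libraries and at 14.3 and 9.28 FPKM in the knockdown (adjusted p = 0.045). It was also listed at 0 in replicate 1 of the control siRNA and at 13.1 FPKM in its replicate 2. OVGP1, a secreted glycoprotein of the oviduct, was at 2.50 and 4.75 FPKM in the knockdown and at 0.605 to 0.809 FPKM with wild type. FAM120C was at 9.07 and 14.2 FPKM in the knockdown and at 3.53 to 4.03 FPKM with wild type (log2 -1.38, adjusted p = 0.011). CHRNA5, a subunit of nicotinic acetylcholine receptors, fell by 1.17 and ZBED1, a zinc finger protein, fell by 1.12 on the log2 scale.

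Readthrough loci made up 4 of the 12 largest falls, CSNK2B-LY6G5B-1181, TMED7-TICAM2, APITD1-CORT and ARHGAP19-SLIT1. CSNK2B-LY6G5B-1181 was at 10.0 and 11.6 FPKM in the knockdown, 2.13 and 1.19 with v1, and 2.47 and 1.49 with v3 (log2 -2.08, SE 0.22, adjusted p = 0.0034). These loci share reads with the genes they join, which makes their values uncertain. None of the 5 joined genes measured beside them passed the threshold: CSNK2B had a log2 change of 0.37 (adjusted p = 0.074), TMED7 0.37, LY6G5B 0.09, APITD1 -0.10 and ARHGAP19 -0.01.

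**Figure D2:**
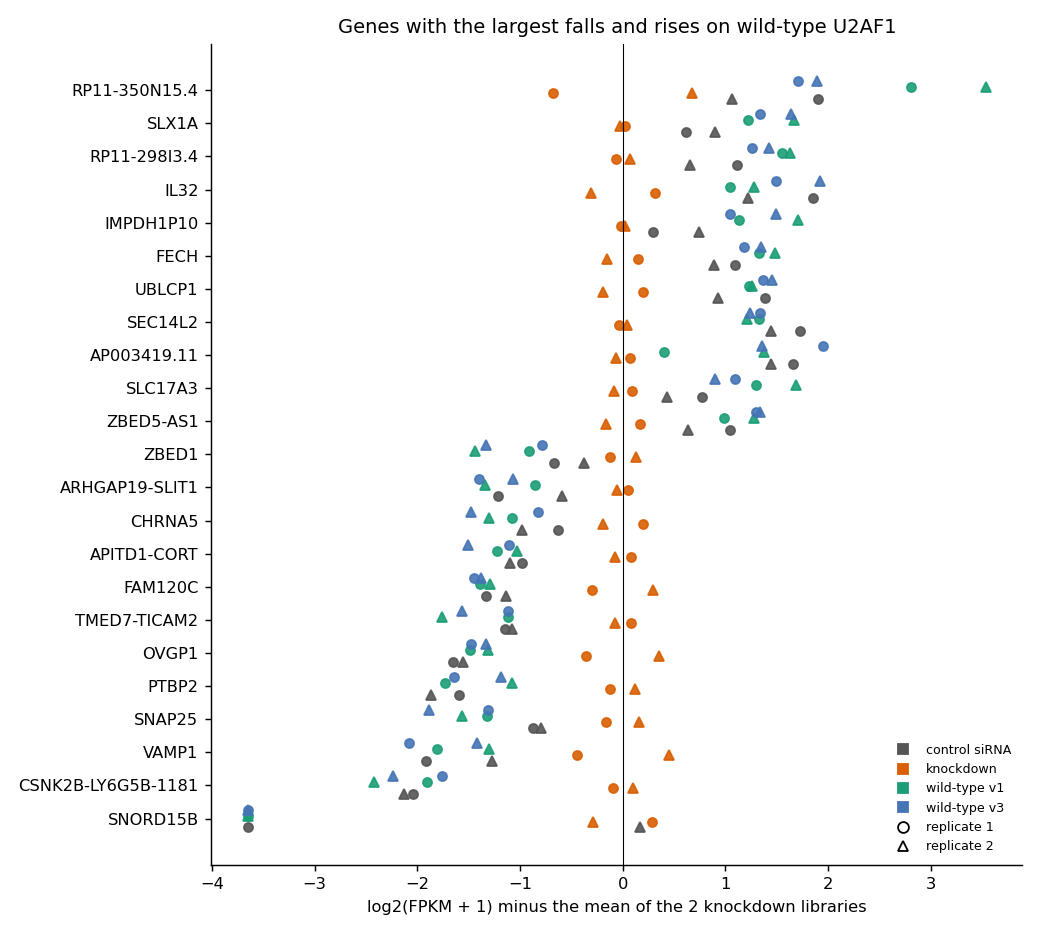
Log2(FPKM + 1) of 23 genes with the largest falls and rises, U2AF1 left out, minus the mean of the 2 knockdown libraries, with 1 point per library (circles replicate 1, triangles replicate 2). The wild-type v1 and v3 points fall on 1 side of both knockdown points for each gene, as the selection required. The control siRNA points lie on that side too except for SNORD15B, where they are split between 0 FPKM and the knockdown level.

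Of 24 genes of U2AF and branch point recognition 1 rose and 1 fell, or 3 and 5 with a replicate block. The shares over all genes were 1.04% and 0.386%, or 4.97% and 2.55% with the block. RBM39, a splicing factor related to U2AF2, was at 336.6 and 331.5 FPKM in the knockdown, 207.1 and 220.8 with v1, and 168.1 and 176.8 with v3. It was highest in the knockdown, lower with v1 and lowest with v3 (log2 of wild type against knockdown -0.80, SE 0.08, adjusted p = 0.0034). The direct test of v3 against v1 did not pass for RBM39 after adjustment (unadjusted p = 0.0081). DDX46, an RNA helicase of the assembling U2 snRNP, was at 47.8 and 45.0 FPKM in the knockdown and at 69.5 to 86.8 FPKM with wild type (log2 0.72, adjusted p = 0.011). U2AF2, the partner of U2AF1, was at 273.3 and 340.2 FPKM in the knockdown, 225.4 and 237.7 with v1, and 200.9 and 202.4 with v3. All 4 wild-type values of U2AF2 were below the knockdown, with a log2 difference of -0.49 that did not pass (adjusted p = 0.077) and passed with a replicate block (0.016). The median of this list was 0.01, against 0.02 over all genes tested.

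Of 33 hnRNP and PTB family genes, which bind pre-mRNA and often repress exons, 1 rose and 2 fell, and 9 lay above the knockdown (median log2 change -0.18). Over all genes 1.04% rose, 0.386% fell and 53.5% lay above. The counts were 1 and 8 with a replicate block, where 4.97% of all genes rose and 2.55% fell. PTBP1 was at 290.6 and 332.6 FPKM in the knockdown, 192.2 and 190.1 with v1, and 183.3 and 213.7 with v3 (log2 -0.67, SE 0.11, adjusted p = 0.019). Its wild-type values were near those of the control siRNA libraries, 203.1 and 243.9 FPKM. HNRNPDL rose from 136.4 and 122.5 FPKM to between 174.5 and 206.3 FPKM (log2 0.55, adjusted p = 0.041). Of the 12 SR proteins, which mostly promote exon inclusion, none passed and 2 lay above the knockdown (median -0.16), and 2 fell with a replicate block. None of 8 SR protein kinases or 18 nonsense-mediated decay factors passed the threshold, with or without the block. None of 11 minor spliceosome genes passed, or 1 higher and 1 lower with the block.

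Targets of p53, the tumour suppressor that answers DNA damage, rose in 5 of 32 and fell in none, where 1.04% of all genes rose. In 30 of the 32 the mean lay above the knockdown, and the median log2 change was 0.50, against 0.02 over all 14233 genes, of which 53.5% lay above. DDB2, a sensor of ultraviolet damage, was at 46.1 and 42.9 FPKM in the knockdown, 92.9 and 95.7 with v1, and 93.3 and 105.2 with v3. All 4 wild-type values of DDB2 were at least 2 times the lower knockdown value (log2 1.10, SE 0.14, adjusted p = 0.0070). CDKN1A, the cyclin-dependent kinase inhibitor p21, was at 95.2 and 98.0 FPKM in the knockdown, 175.7 and 132.7 with v1, and 185.7 and 165.3 with v3 (log2 0.75, adjusted p = 0.023). Its control siRNA values, 93.97 and 96.96 FPKM, were those of the knockdown and not those of the constructs.

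FDXR, a mitochondrial reductase, rose by a log2 change of 0.99 (adjusted p = 0.010), SESN1 by 0.91 (0.013) and SESN2 by 0.89 (0.029). The sestrins restrain mTORC1 under stress. Of the 32 targets 18 rose with a replicate block, where 4.97% of all genes rose, and without either knockdown library none did. The median was 0.56 without knockdown replicate 1 and 0.49 without replicate 2, and against the control siRNA it was 0.51. As for U2AF1 itself, a response to the level of U2AF1 and one to its overexpression cannot be told apart.

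Inflammatory cytokines and genes of NF-kB feedback had 1 rise in 21 tested, that of IL32, and 20 lay above the knockdown (median 0.85). Of all genes 1.04% rose and 53.5% lay above. CXCL5, a neutrophil chemokine, was at 53.6 and 28.8 FPKM in the knockdown and 84.6 to 100.6 FPKM with wild type (log2 1.18, adjusted p = 0.12). TNFAIP2 was at 226.8 and 214.3 FPKM in the knockdown and 339.5 to 450.5 FPKM with wild type (log2 0.80). Its adjusted p was 0.052 in the main model and 0.0068 with a replicate block. Of the 21 genes 5 rose with a replicate block, where 4.97% of all genes rose. The list of leukocyte and endothelial markers was also higher in sum, as given above, but only 2 of its 11 members were expressed enough to be tested. Their part in the result was not tested. Of 17 interferon-stimulated genes none passed, or 1 with a replicate block, and 11 lay above the knockdown (median 0.23). IRF1, a transcription factor of the interferon response, was at 11.9 and 11.5 FPKM in the knockdown and 14.6 to 33.2 FPKM with wild type (adjusted p = 0.42).

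Of 17 replication-dependent histone genes none passed, or 1 with a replicate block, and 16 lay above the knockdown (median 0.38). Among all genes 53.5% lay above, 1.04% rose and 0.386% fell, or 4.97% and 2.55% with the block. The histone gene HIST1H2BK had a log2 change of 0.47 (adjusted p = 0.11, or 0.047 with a replicate block) and HIST1H1C one of 0.38. Genes of G1/S and DNA replication lay the other way, with 7 of 34 above the knockdown, none called and a median of -0.29. MCM7, a subunit of the replicative helicase, was at 199.6 and 218.2 FPKM in the knockdown and 145.4 to 179.5 FPKM with wild type (adjusted p = 0.10, or 0.019 with a replicate block). PCNA, the sliding clamp of the replication fork, was at 272.3 and 273.5 FPKM in the knockdown and 304.7 to 331.4 FPKM with wild type (log2 0.21, adjusted p = 0.44). Of the 34 genes 5 fell with a replicate block. Of 39 genes of G2/M and mitosis 1 rose and 7 lay above the knockdown (median -0.15), and 1 rose and 9 fell with a replicate block. The one that rose was NCAPH, a condensin subunit, from 28.9 and 24.8 FPKM to between 39.3 and 43.5 FPKM (log2 0.62, adjusted p = 0.038). CCNB1, the mitotic cyclin B1, had a log2 change of -0.33 (adjusted p = 0.18) and TOP2A, a topoisomerase, one of -0.09 (0.75).

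FECH was the 1 called of 24 genes of heme synthesis and handling, of which 14 lay above the knockdown, with a median of 0.05. For all genes the shares were 1.04% higher, 0.386% lower and 53.5% above. With a replicate block 4 of the 24 rose, where 4.97% of all genes rose and 2.55% fell. With quantile normalization 2 rose, where 91 of all 14233 genes rose. BLVRB, a biliverdin reductase, was at 207.8 and 191.1 FPKM in the knockdown and 192.6 to 276.9 FPKM with wild type, and the heme-binding protein PGRMC1 at 137.6 and 128.5 against 112.3 to 129.9 FPKM. The Fanconi anemia list of 21 genes also takes in the nuclease copies SLX1A and SLX1B, and these were the 2 that rose (median 0.18). No other gene of that list was called in the main model, and 4 of the 21 rose with a replicate block. In the unfolded protein and integrated stress response 1 of 23 rose, SESN2, which is also on the p53 list (median 0.17). In glycolysis and hypoxia response 1 of 21 rose, PDK1, a kinase that inhibits pyruvate dehydrogenase (log2 0.81, adjusted p = 0.048). Of 16 snoRNA host transcripts sensitive to decay SNHG8 rose (log2 0.53, adjusted p = 0.037). None passed among 21 NRF2 targets, 21 genes of cholesterol synthesis, 31 cytosolic ribosomal proteins, 13 epithelial genes, 20 genes of mesenchymal state and TGF-beta response, 5 alveolar and airway markers, 2 fibroblast markers and 2 leukocyte and endothelial markers. Blocked by replicate, 1 epithelial and 1 mesenchymal gene rose, 1 gene of cholesterol synthesis fell, and 2 genes each rose in the stress response and in glycolysis and hypoxia. Of the 15 mitochondrially encoded genes none passed and 15 lay above the knockdown (median 0.19), or 11 with quantile normalization (median 0.05).

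**Figure D3:**
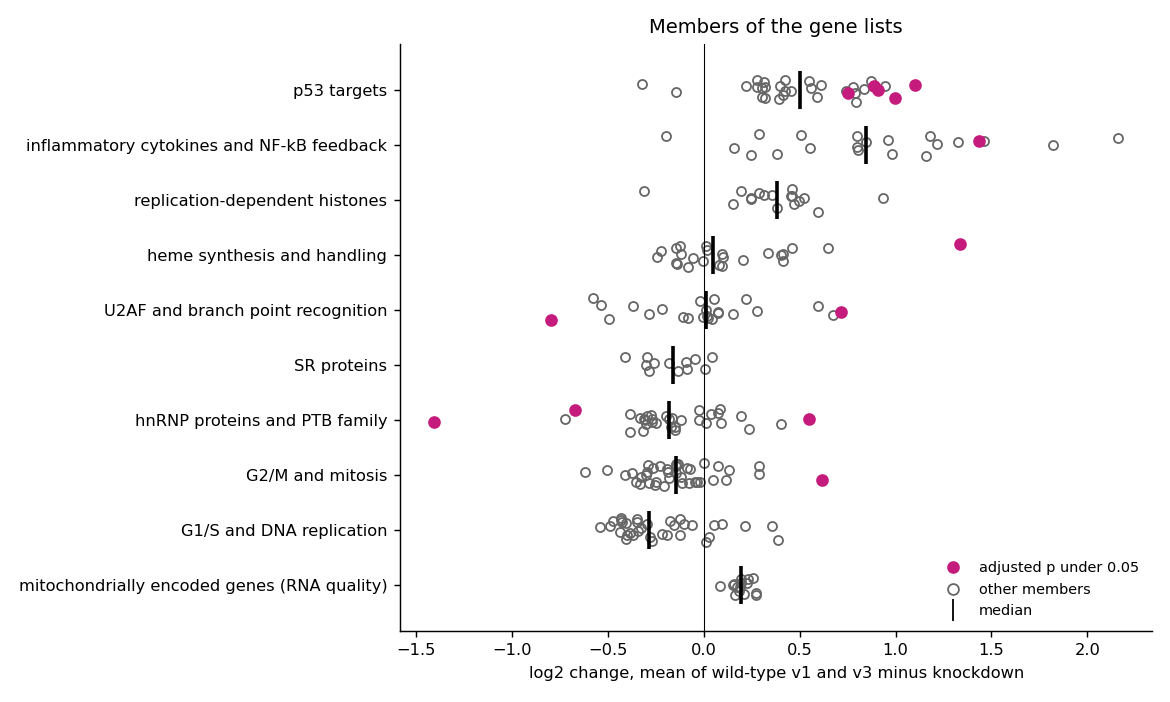
Log2 change with wild-type U2AF1 (v1 and v3 averaged) from the knockdown for the tested members of 10 gene lists, with filled points for adjusted p under 0.05 and bars at the list medians. The medians run from -0.29 for G1/S and DNA replication to 0.85 for cytokines and NF-kB feedback, with p53 targets at 0.50 and heme genes at 0.05.

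The constructs v1 and v3 were also taken apart. Against the knockdown, v1 had 25 higher and 6 lower calls, or 0.218% of genes (0.176% higher and 0.0422% lower). For v3 there were 43 higher and 17 lower calls, or 0.422% (0.302% higher and 0.119% lower). Both comparisons share the knockdown libraries. The direct test of v3 against v1 called 0 of 14233 genes (0.00%), with 150 at an unadjusted p under 0.05 and a lowest adjusted p of 0.24. FECH gave a log2 change of 1.40 with v1 (adjusted p = 0.0046) and 1.26 with v3 (0.0064). RBM39 gave -0.64 with v1 (adjusted p = 0.026) and -0.95 with v3 (0.0049). Blocked by replicate, the calls were 410 for v1 and 609 for v3, and the difference between constructs still had none. In isoform usage 2 of 41727 isoforms (0.00479%) and in acceptor usage 2 of 31391 acceptors (0.00637%) differed between the constructs. These were the 2 exon 3 isoforms of U2AF1, which the constructs themselves supply, and their acceptors. A test with 2 libraries per construct does not show that they act alike.

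Isoform choice shifted in genes of many functions. Usage here is the share of a gene's FPKM, in percent, that 1 isoform holds. It rose for 27 and fell for 87 isoforms with wild-type U2AF1. That is 114 of 41727 isoforms tested, or 0.273% (0.0647% higher and 0.208% lower), in 104 genes, and none of the 114 overlapped between groups, against 24.1% not overlapping over all isoforms tested. On an arcsine square root scale 34 rose and 17 fell, so the excess of losses depended on the scale. With a replicate block the counts were 41 and 113. Leaving out replicate 1 or 2 gave totals of 86 and 40 for the knockdown, 66 and 20 for wild-type v1, and 8 and 6 for wild-type v3.

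RPS24, a protein of the small ribosomal subunit, had the highest gene level of those described for usage besides U2AF1, with a mean of 1891 FPKM. Its isoform ENST00000372360 took 43.6% and 31.6% of RPS24 FPKM in the knockdown, 73.6% and 75.9% with v1, and 74.4% and 77.1% with v3. All 4 wild-type values lay above both knockdown values, and the control siRNA libraries were at 75.4% and 68.6% (37.6 points above the knockdown, SE 4.1, adjusted p = 0.014). In OCRL, a phosphoinositide phosphatase, ENST00000357121 went from 25.7% and 24.5% to between 62.5% and 71.5% (41.3 points, adjusted p = 0.036). In APOO, of the mitochondrial cristae complex MICOS, ENST00000439528 went from 21.1% and 18.6% to between 49.5% and 61.4% (37.4 points, adjusted p = 0.018). SLC9A7, an endosomal sodium-proton exchanger, had ENST00000464933 at 0.00595% and 1.24% in the knockdown and at 31.3% to 37.5% with wild type. Among genes with a mean of at least 5 FPKM, FAM58A, PIGT, DNAJB12 and DPY19L1 gained between 28.8 and 39.2 points in 1 isoform each.

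SNAP25 fell in level, and 1 of its isoforms lost usage. ENST00000254976 took 45.7% and 63.7% of SNAP25 FPKM in the knockdown, 11.5% and 0.00043% with v1, and 4.85% and 6.91% with v3 (-48.9 points, SE 5.5, adjusted p = 0.014). The CDC25A phosphatase, which drives entry into S phase, had ENST00000351231 at 44.2% and 49.5% in the knockdown, 18.3% and 8.79% with v1, and 6.87% and 0.00196% with v3 (-38.4 points, adjusted p = 0.019). In DDB2, whose level rose, ENST00000378600 went from 17.6% and 25.2% to between 2.76% and 5.92% (-16.98 points, adjusted p = 0.036). In FAM120C, whose level fell, ENST00000477084 went from 85.8% and 88.3% to between 46.4% and 59.5% (-31.5 points, adjusted p = 0.041). C16orf74, C1orf63, FAM161A, MITD1 and TMEM126B lost between 32.2 and 47.6 points in 1 isoform each.

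**Figure D4:**
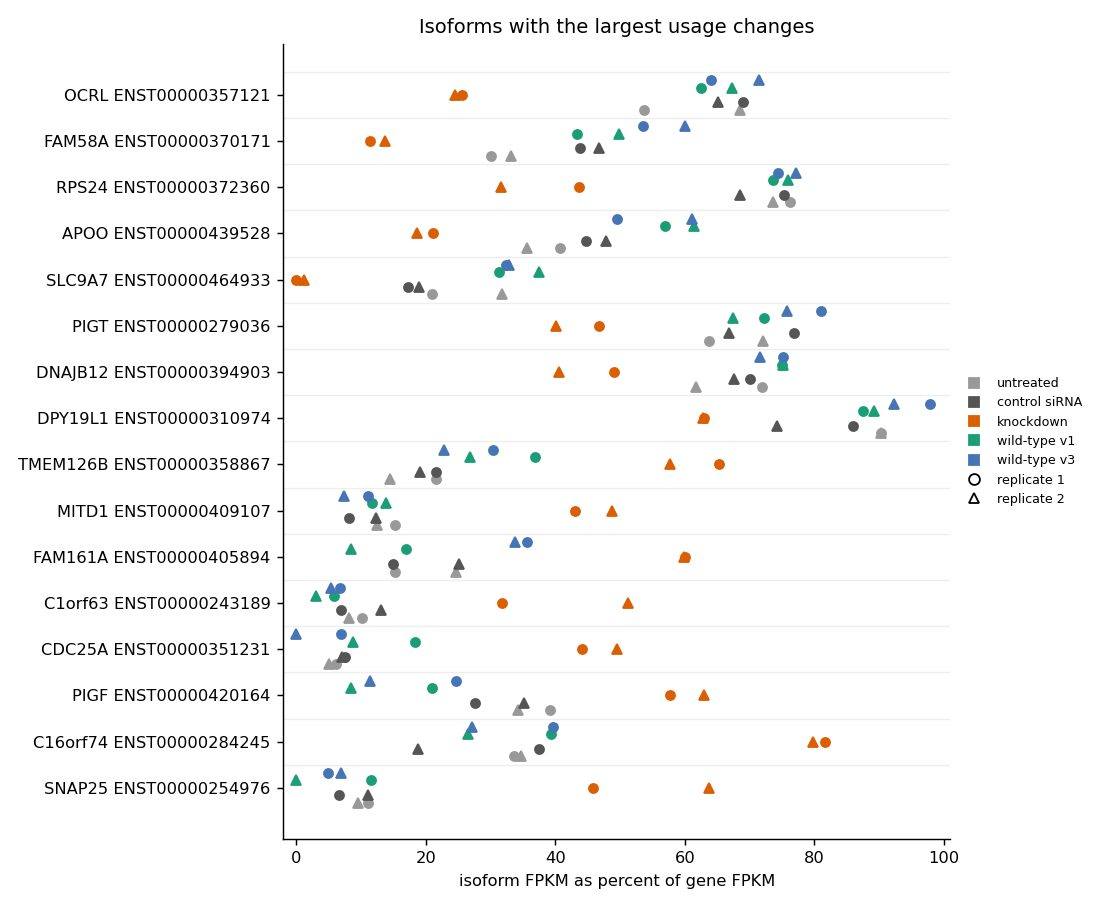
Usage in percent of gene FPKM of 16 isoforms, the 8 largest gains above and the 8 largest losses below among called isoforms of genes with a mean of at least 5 FPKM, with 1 point per library in 5 groups (circles replicate 1, triangles replicate 2). In each row both knockdown points stand apart from the 4 wild-type points, as in RPS24 at 43.6% and 31.6% against 73.6% to 77.1%. Rows were picked, 1 per gene, for this lack of overlap.

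Usage was also counted for transcripts annotated as targets of nonsense-mediated decay, the pathway that removes mRNAs with early stop codons. Of 2711 such isoforms tested 0 gained and 10 lost usage (0.369%, against 0.273% of all isoforms, of which 87 of the 114 called lost usage), in PIGF, RHEBL1, WNK4, RP11-345J4.5, CASD1, GTF2H2, FAM86B1, DTNBP1, MLH3 and PIGX. At the same time 1452 of the 2711 lay above the knockdown (median 0.46 points), and the excess of losses over all isoforms was not kept on the arcsine scale, as given above. PIGF, an enzyme of GPI anchor synthesis, had its decay isoform ENST00000420164 at 57.7% and 62.9% in the knockdown, 20.98% and 8.47% with v1, and 24.7% and 11.4% with v3. The difference from the knockdown was -43.95 points (adjusted p = 0.021). All 4 wild-type values were also below the control siRNA libraries, 27.6% and 35.2%, but that difference of -15.03 points did not pass (adjusted p = 0.74). Of 24788 protein-coding isoforms 21 gained and 65 lost usage (0.347%). Of 4946 retained-intron isoforms 1 gained, in POLD3, and 4 lost usage, in GOLGA8N, HBP1, CLK4 and MINK1. CLK4 is a kinase of SR proteins, and its retained-intron isoform ENST00000520199 was at 16.2% and 22.97% in the knockdown and at most 7.497% with wild type.

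Acceptor choice was read from the same tables. For each acceptor the FPKM of isoforms using it was divided by the FPKM of isoforms spanning it and given in percent. With wild-type U2AF1, 80 acceptors gained and 57 lost usage, 137 of 31391 (0.436%, with 0.255% higher and 0.182% lower) in 112 genes, and none of the 137 overlapped between groups, against 25.1% over all tested. With a replicate block 174 gained and 91 lost, and on the arcsine scale the total was 58. Leaving out replicate 1 or 2 gave totals of 134 and 43 for the knockdown, 70 and 14 for wild-type v1, and 11 and 22 for wild-type v3. The median over all acceptors was 0.92 points, with 55.8% above 0. Where the other isoforms skipped the site, 62 of 18861 acceptors gained and 47 lost usage (median 1.34 points). Where the other isoforms kept the intron or had a longer exon, 18 of 12530 gained and 10 lost usage (median 0.36 points).

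For 8 of the acceptors that changed the end of the intron is given, since U2AF1 contacts these bases. Those that gained (4) and those that lost usage (4) are the ones with the largest changes for which the bases could be read, in genes with a mean of at least 5 FPKM, some of them picked after their values were seen. Each line holds 25 bases of intron and 4 of exon, read from other transcripts of GENCODE release 29 (GRCh38) whose exons cover the stretch, and capitals mark the last 3 intron bases.
ATP11A, chr13:112881791-112881819, plus strand, gained 55.5 points: accatgtgtctcgttctctcagCAGaatg
MITD1, chr2:99171426-99171454, minus strand, gained 44.4 points: aataatccattctaatgtctttTAGctgt
APOO, chrX:23833507-23833535, minus strand, gained 40.2 points: gtattaaattggctttcttcttCAGgaaa
ARHGAP17, chr16:24939594-24939622, minus strand, gained 40.1 points: ttgactgtttcttctctctgtgTAGcttt
C16orf74, chr16:85710304-85710332, minus strand, change of -47.99 points: gtgtgctccacgcctggcttctCAGgctt
CLASP1, chr2:121427427-121427455, minus strand, change of -43.3 points: cctttggtctgctctcataatcAAGgatc
C1orf63, chr1:25243630-25243658, minus strand, change of -39.7 points: ttacactttttcttaacctgtcTAGctgt
GIT1, chr17:29578985-29579013, minus strand, change of -32.4 points: ctctgctgccttcctctggactTAGatct

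ATP11A, a flippase of membrane lipids, used its acceptor at 28.9% and 8.66% in the knockdown, 64.3% and 89.4% with v1, and 77.8% and 65.5% with v3 (adjusted p = 0.046). All 4 wild-type values were above both knockdown values, though they varied by many points between replicates. RPAP3, a cofactor of the HSP90 chaperone, gained 50.8 points, and EHMT2, a histone H3 lysine methyltransferase, 48.6 points. In APOO an acceptor and one 102 bases upstream of it changed by equal and opposite amounts, the downstream site from 21.99% and 19.7% to between 51.6% and 67.7%.

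CLASP1, a protein of microtubule plus ends, used the acceptor shown in 100% of its spanning FPKM in both knockdown libraries, 51.97% and 48.5% with v1, and 61.5% and 64.7% with v3. A second acceptor of CLASP1 belongs to the same isoform and had identical values. ANP32E, a chaperone of the histone variant H2A.Z, used its acceptor at 80.8% and 82.8% in the knockdown, 21.2% and 43.3% with v1, and 13.2% and 33.6% with v3 (-53.96 points, adjusted p = 0.038). BIN1, a membrane-curving protein, went from 73.4% and 76.6% to between 21.7% and 40.7% (-43.1 points, adjusted p = 0.041). Acceptors of SNAP25 and PIGF fell by 58.4 and 48.0 points.

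By the base at position -3, just before the AG, bases were known for 16591 acceptors with AG, of which 37 gained and 20 lost usage. With C there, 25 of 11334 gained and 10 lost usage, with a median of 0.96 points. With T, 8 of 3596 gained and 5 lost usage (median 0.15), with A 4 of 1326 gained and 4 lost (median -0.37), and with G 0 of 335 gained and 1 lost (median 0.22). These are counts over acceptors of shared genes and carry no test. In the 22 bases before the last 3, the median pyrimidine share was 68.2% in the 36 acceptors that gained, the 18 that lost and the 14845 with all these bases known. The median share of T alone was 40.9%, 31.8% and 36.4% in these sets, given with no test.

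**Figure D5:**
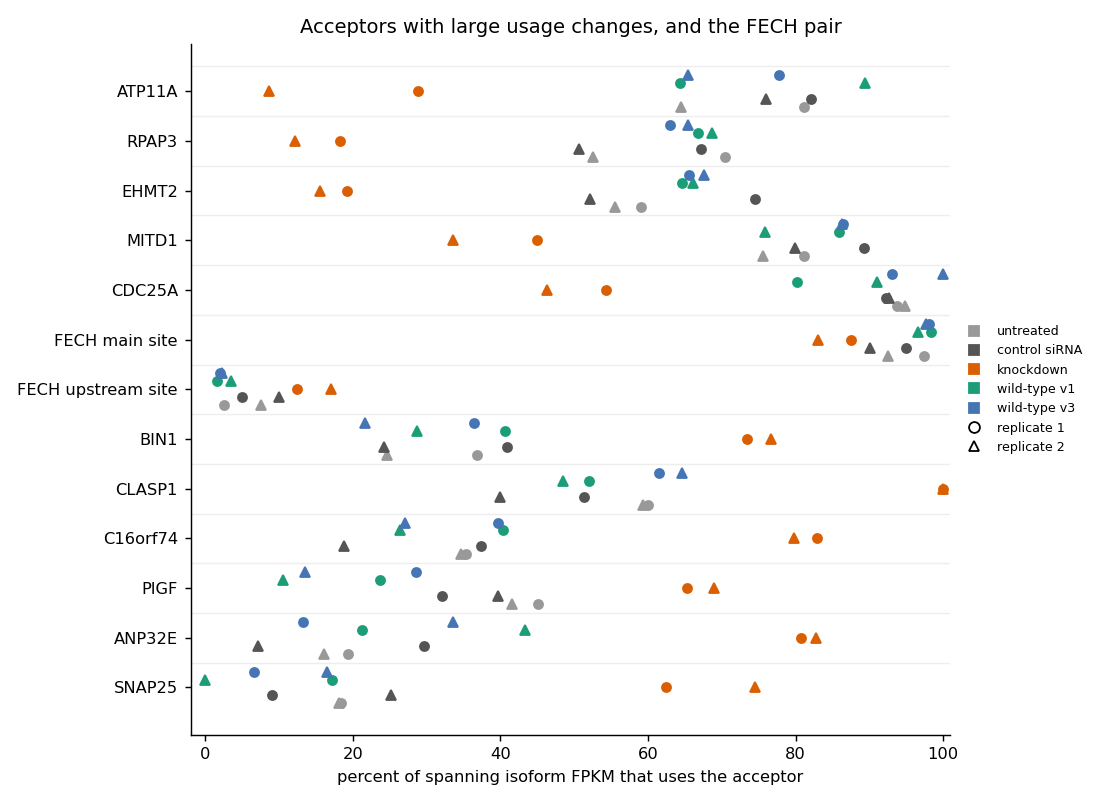
Acceptor usage in percent of spanning isoform FPKM for large gains (top), the FECH pair (middle) and large losses in genes of at least 5 FPKM (bottom, with 1 of the 2 identical CLASP1 acceptors), with 1 point per library in 5 groups. Both knockdown points stand apart from the 4 wild-type points in each row, as in RPAP3 at 18.2% and 12.1% against 62.95% to 68.7%. Apart from the FECH pair, rows were picked for this lack of overlap, at a mean spanning FPKM of at least 5.

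FECH has such a choice in the intron before 1 of its exons, between the main acceptor and one 63 bases upstream that makes the exon longer. The end of the intron at the main site is given because both the level of FECH and this choice were read in the same libraries, with 25 intron and 4 exon bases and the last 3 intron bases in capitals.
FECH, chr18:57571537-57571565, minus strand, GRCh38: cttacctgtatgttaaatgattTAGtaag
The upstream site was used in 12.5% and 17.01% of spanning FECH FPKM in the knockdown, 1.59% and 3.42% with v1, and 1.92% and 2.32% with v3. It was highest in the knockdown, at 5.01% and 9.96% in the control siRNA libraries, and the 4 wild-type values were below all of these. The difference of -12.4 points (SE 2.9) did not pass (adjusted p = 0.10) and passed with a replicate block (0.040). The main site gave the opposite change, with adjusted p = 0.094, or 0.031 with a replicate block. The decay-annotated isoform ENST00000585494 was at 10.4% and 14.5% of FECH FPKM in the knockdown, 1.57% and 3.31% with v1, and 1.89% and 2.24% with v3 (-10.2 points, adjusted p = 0.16). In FPKM it was at 2.66 and 2.97 in the knockdown and 0.927 to 2.18 with wild type. Of the coding isoforms, ENST00000382873 went from 6.62 and 6.82 FPKM to between 22.3 and 30.2 FPKM. ENST00000262093 went from 4.46 and 4.44 FPKM to between 8.92 and 9.56 FPKM, and ENST00000585747 from 7.21 and 1.67 FPKM to between 10.03 and 19.65 FPKM. ENST00000592699 overlapped, at 2.78 FPKM in both knockdown libraries and 2.44 to 10.55 FPKM with wild type.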

How the data were processed

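RNA-seq libraries of A549 cells were grouped by their labels. Per the submitters' processing notes, the authors trimmed reads with Trimmomatic 0.30 and aligned them with TopHat2 2.0.12, with genome build GRCh37. Which program made the estimates, and from which annotation release, is not given in the sources used here. The deposited tables list an isoform FPKM, per the file headers, for 195553 isoforms of 57756 genes. They also list, per the file headers, a coverage value, and its ratio to FPKM gave relative depth. FPKM does not give read counts, so no count model was used.

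Isoform FPKM was summed within a gene identifier. Genes with a mean of at least 1 FPKM over 14 libraries and no estimate marked as failed entered the test (14233), by limma 3.58.1 (R 4.3.3) on log2(FPKM + 1), with an intensity trend and 7 group means (7 residual and 3.92 prior degrees of freedom). Wild type is the mean of v1 and v3. Isoform usage (mean of 5 to 95 percent, gene FPKM above 0 in all libraries) and acceptor usage were tested in the same way, the trend for these 2 being chosen after the data were seen. The Benjamini-Hochberg adjustment ran over all features tested in a comparison. Exon structures came from GENCODE release 29 (GRCh38), for the 88.0% of isoforms of tested genes with equal identifier, gene and length. Transcript types were taken from that release by identifier alone, so some typed isoforms may differ in length from the release entry. Of the isoforms tested for usage, 2701 had an identifier not in the release and no type. Bases before the exon could be read for 53.2% of the variable acceptors, mostly alternative sites. No genome sequence was used.

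The members and the gene lists were chosen with earlier results of these data known, and lists are described by counts and medians. Named by rule were U2AF1, U2AF2, FECH, the 12 largest rises and falls called without overlap, each called list member, or the 2 most abundant of a list with fewer calls (given for some lists only), the 8 isoforms and 6 acceptors with the largest changes each way, called without overlap and 1 per gene, in genes with a mean of at least 5 FPKM, and called isoforms of named genes. Of these, 2 are not reported here. The labels do not say whether a replicate number marks a shared batch. Deviations of same-numbered samples from their group means were correlated at 0.22 to 0.56 for the 3 pairs of groups compared here, and at 0.16 to 0.57 over all 21. The main model has no replicate block, so it leaves such shared deviations in the spread, and blocked counts are given beside it. Alternatives were other pseudocounts, filters, scalings and transforms, a replicate block, a fit without the trend, and the leaving out of libraries.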

Additional observations from a re-analysis of the deposited data

Results flagged for a closer look

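The effect of the constructs on U2AF1's own isoforms differed between v1 and v3 by a direct test of v3 minus v1. Usage of ENST00000380276 differed by -96.3 points (limma, adjusted p = 0.00017), with a change from the knockdown of 71.3 points with v1 and -24.97 points with v3. Usage of ENST00000291552 differed by 94.02 points (adjusted p = 0.00017), with -29.9 points with v1 and 64.1 points with v3. The acceptor of the third exon of ENST00000291552 differed by 96.3 points (adjusted p = 4.1e-05) and that of ENST00000380276 by -94.1 points (adjusted p = 4.1e-05). These were the 2 isoforms and the 2 acceptors called between the constructs. No group here had enough libraries to test a single one as an outlier.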

How the results depend on the processing

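Depth is known only relative to other libraries. With 2 libraries per group the counts of calls moved with single libraries and with the error model. No named feature changed direction in any setting tried, but most were picked for a lack of overlap between the groups. For those, leaving out 1 library could not reverse the direction, so the lack of reversals does not show stability. The 203 genes called became 20 with only the 6 libraries compared, 1070 with a replicate block, 123 without the intensity trend (added after the data were seen), 141 with no filter on low values (87 higher and 54 lower, 61.7% higher against 72.9%), and 5 to 57 when 1 library was left out. Without v1 S34F replicate 2 they were 156. For v1 alone the 31 calls became 410 with a replicate block, 3 with the 6 libraries and 3 to 13 when 1 library was left out. For v3 the 60 became 609, 2 and 2 to 15. The 0 calls between constructs became 1 with a pseudocount of 0.1, 1 with the 6 libraries and 1 to 3 when 1 library was left out. The 114 isoforms became 51 on the arcsine scale, 54 at a mean usage of 10 to 90 percent, 235 at a gene FPKM of at least 5, 0 with the 6 libraries (4513 had an unadjusted p under 0.05 in the fit of all libraries), 154 with a replicate block and 6 to 86 when 1 library was left out. The 137 acceptors became 58 on the arcsine scale, 222 at a gene FPKM of at least 5, 0 with the 6 libraries, 265 with a replicate block, 224 without the trend and 11 to 134 when 1 library was left out. Of the 72 named features that were called, 72 were called with a replicate block, 8 with the 6 libraries, 18 without knockdown replicate 1 and 4 without knockdown replicate 2. Where a library is left out, the lone remaining one is assumed to vary like the other groups. The causes of these shifts were not tested.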
